A study of Mus musculus with 8 samples.

Results

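The 2 libraries compared here held tdTomato+ cells sorted from mouse forelimbs at embryonic day (E) 11.5 and E12.5 and labelled as mesenchymal progenitors (MPs). Every deposited cell barcode with at least 3000 unique molecular identifiers (UMIs, each marking 1 captured transcript) and at most 10% mitochondrial UMIs was used, which gave 3165 cells at E11.5 and 4714 at E12.5. These 7879 cells were part of 53085 cells that passed the same filter in the 8 libraries of the series. All embryos were on the C57BL/6J strain and carried *Hic1* CreERT2 and a Rosa26 loxP-stop-loxP tdTomato reporter, both labelled as homozygous, and their dams had been given 7.5 mg of tamoxifen by gavage at embryonic day 10. Both stages therefore shared the homozygous *Hic1* CreERT2 allele, and the reporter marked cells that had expressed CreERT2 from the *Hic1* locus around the time of tamoxifen, with their descendants. Forelimbs of several embryos of either sex were pooled per library, and cells carrying surface markers of blood or endothelium were gated out in the sort. The E13.5 sorted library and both libraries of whole E11.5 limbs, made of tdTomato+ and tdTomato- cells, are given only as context.

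*Hic1* encodes a transcriptional repressor that marks progenitors of connective tissue in the limb. In the days studied, limb bud mesenchyme grows, is patterned along the proximodistal axis by homeobox transcription factors, and begins to separate into condensing cartilage, tendon and loose connective tissue. Connective tissue cells build a matrix of fibrillar collagens, whose fibres are organised by small leucine-rich proteoglycans and joined by elastic fibres and matricellular proteins. The comparison addressed how the labelled lineage changed as it filled the limb.

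With 1 library per stage there was no replicate, so no test was made. A level is given in CPM, the UMIs of a gene in every 1000000 UMIs after all cells of a library were added up, and a difference as the ratio of CPM at E12.5 to CPM at E11.5 with its exact 95% interval. These intervals cover counting error only and hold neither the spread between embryos nor that between libraries. Detection is the share of cells with at least 1 UMI of a gene after every cell had been thinned at random to 3000 UMIs. In libraries of pooled cells, more cells expressing a gene and more transcripts per cell both raise CPM.

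Depth was similar at both stages. The cells held 31500092 UMIs at E11.5 and 44217902 at E12.5, with medians of 8992 and 8683 UMIs per cell, and at 3000 UMIs per cell the median cell had 1630 and 1613 genes. The deposited E11.5 barcodes differed in quality, because 25.3% of them lay under 3000 UMIs with a median of 19.5% mitochondrial UMIs, against 5.45% with a median of 15.7% at E12.5. Among barcodes within the mitochondrial limit, the cells just inside the depth limit (3000 to 3500 UMIs) numbered 97 and 85, and those just outside it (2500 to 3000 UMIs) 94 and 65. The libraries shared 17 filtered barcodes, 0.537% of the E11.5 cells and 0.361% of the E12.5 cells. *Xist*, which marks female cells, was at 711 and 544 CPM and Y-linked genes at 113 and 137 CPM.

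The sorted cells carried the marks of their label, and few of them had several markers of another cell type. *Hic1* was at 23.7 CPM at E11.5 and 38.0 CPM at E12.5 and the tdTomato transcript at 454 and 680 CPM, whereas the whole limb libraries had at most 0.741 CPM of *Hic1* and 4.21 CPM of tdTomato. No cell at either stage had 3 detected markers of immune or neuronal cells, which allows a share of up to 0.0948% at E11.5 and 0.0636% at E12.5 for cells with 3 detected markers at this depth (3 counts of the total), and no more than 3 cells of a library had 3 markers of muscle, endothelium, epithelium or glia. Haemoglobin genes summed to 0.159 and 0.226 CPM in the sorted libraries, against 272 CPM or more in those of whole limbs. The sorted libraries held no other cell type in which the free RNA of mesenchymal genes could be measured.

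Of 8465 genes with a mean of at least 10 CPM over both libraries, 147 were at least 2-fold higher at E12.5 (1.74%) and 75 at least 2-fold lower (0.886%), or 2.62% in either direction. The whole interval lay beyond 2-fold for 116 of the genes that were higher and for 53 of those that were lower. As a gauge of how far libraries of 1 kind differed, 8 of 7892 genes (0.101%) were 2-fold apart in either direction between both whole limb libraries. These were unsorted and of 1 stage, with *Xist* at 926 and 367 CPM and Y-linked genes at 1.97 and 134 CPM. They do not measure the spread between separate sorts. The median log2 ratio between the stages was -0.05, and 90% of genes lay between -0.59 and 0.60. Detection at equal depth moved in the direction of CPM for each of the 147 and each of the 75 genes. It was taken from the same UMIs by which these genes were chosen, so it is no separate support. The median log2 ratio of detection was 1.17 for the genes that were higher, beside 1.40 for their CPM, and -1.24 for the genes that were lower, beside -1.25.

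**Figure D1:**
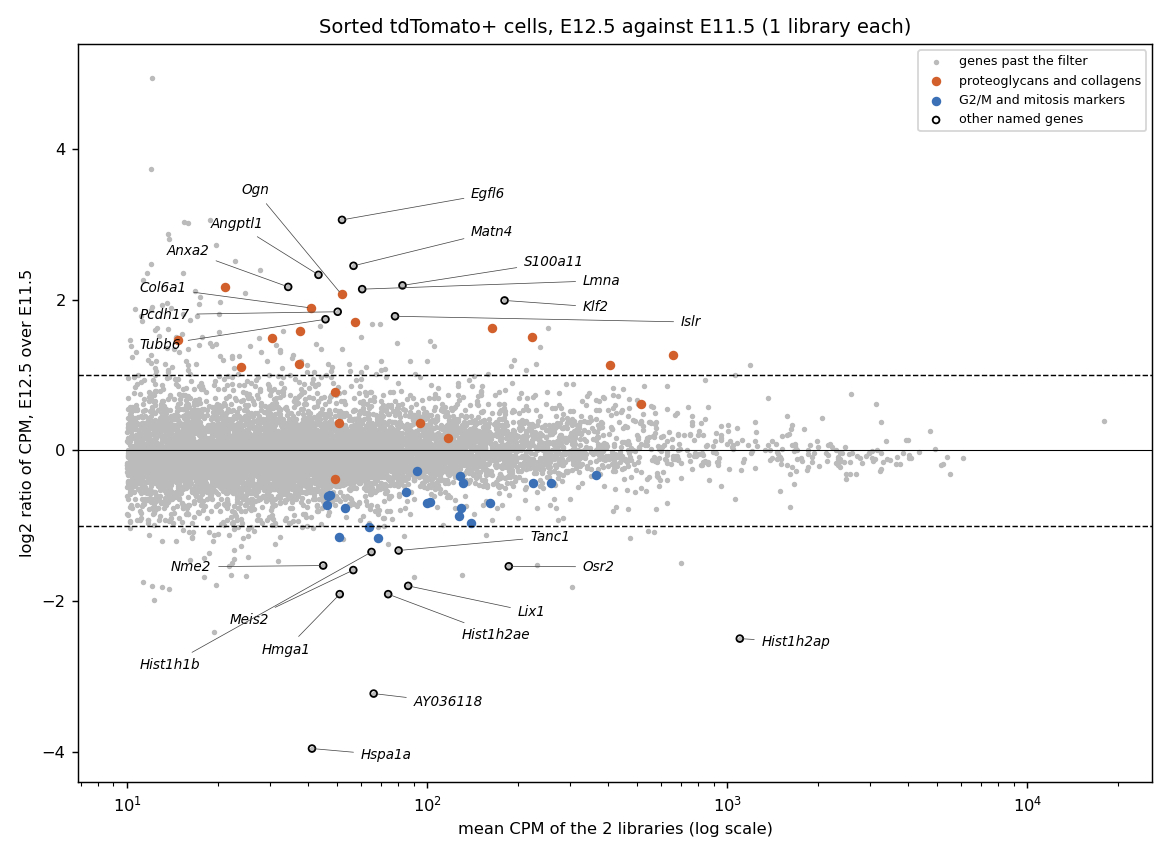
Each of 8465 genes is plotted by its mean CPM over the E11.5 and E12.5 sorted libraries (x axis, log scale) and its log2 ratio of CPM, E12.5 over E11.5 (y axis), with dashed lines at 2-fold. Proteoglycan and collagen genes (orange) lie mostly above 0 and reach 4.50-fold (*Col6a3*), markers of G2/M and mitosis (blue) all lie below 0, and the 23 named genes shown carry their symbols.

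The genes with the largest increases included 5 genes of secreted or matrix proteins (*Egfl6*, *Matn4*, *Angptl1*, *Ogn* and *Col6a1*). This class was assigned after the genes were seen, and its share among all genes was not counted. The named genes were the 12 at either end of the ratios of CPM + 1, taken from genes whose larger level was at least 50 CPM. *Egfl6*, a secreted EGF-like repeat protein of the matrix, was at 11.1 CPM at E11.5 and 92.9 CPM at E12.5, a ratio of 8.36 (7.49 to 9.35). It was detected in 3.25% and 18.9% of cells, and its E13.5 level was 164 CPM. *Matn4*, a matrilin of cartilage matrix, followed at 17.6 and 96.1 CPM (ratio 5.48, 5.01 to 5.99), and *Angptl1*, a secreted angiopoietin-like protein, at 14.4 and 72.5 CPM (ratio 5.03, 4.56 to 5.56). These 3 genes were each at 6.04 CPM or less in the whole E11.5 limb libraries.

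Genes of the cytoskeleton, the nuclear lamina and calcium-dependent membrane binding stood among the 12 as well. *S100a11*, a calcium-binding protein, was at 29.8 and 136 CPM (ratio 4.56, 4.25 to 4.89), and *Anxa2*, a membrane-binding annexin, at 12.5 and 56.2 CPM (ratio 4.51, 4.05 to 5.03). *S100a10*, whose protein binds annexin A2, lies 28.8 kb from *S100a11* on chromosome 3 and was at 9.40 and 40.0 CPM. *Lmna*, the gene of A-type lamins, was at 22.4 and 98.9 CPM (ratio 4.41, 4.08 to 4.79) and *Tubb6*, a beta-tubulin, at 21.1 and 70.4 CPM (ratio 3.33, 3.06 to 3.63). *Tubb6* was back at 22.1 CPM at E13.5, while *Lmna* was at 107 CPM. The transcription factor *Klf2* went from 73.1 to 290 CPM (ratio 3.96, 3.79 to 4.14), and stood at 164 CPM at E13.5.

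The remaining named genes were *Ogn* and *Col6a1*, described with their families below, *Pcdh17* and *Islr*. *Pcdh17*, a protocadherin of cell-cell contacts, was at 22 and 78.7 CPM (ratio 3.58, 3.30 to 3.89). *Islr*, a membrane-anchored immunoglobulin and leucine-rich repeat protein of mesenchymal cells, was at 35.1 and 121 CPM (ratio 3.44, 3.23 to 3.68), with detection in 10.3% and 30.3% of cells. Detection was higher at E12.5 for all 12 named genes, which more expressing cells and more transcripts per cell can both bring about.

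**Figure D2:**
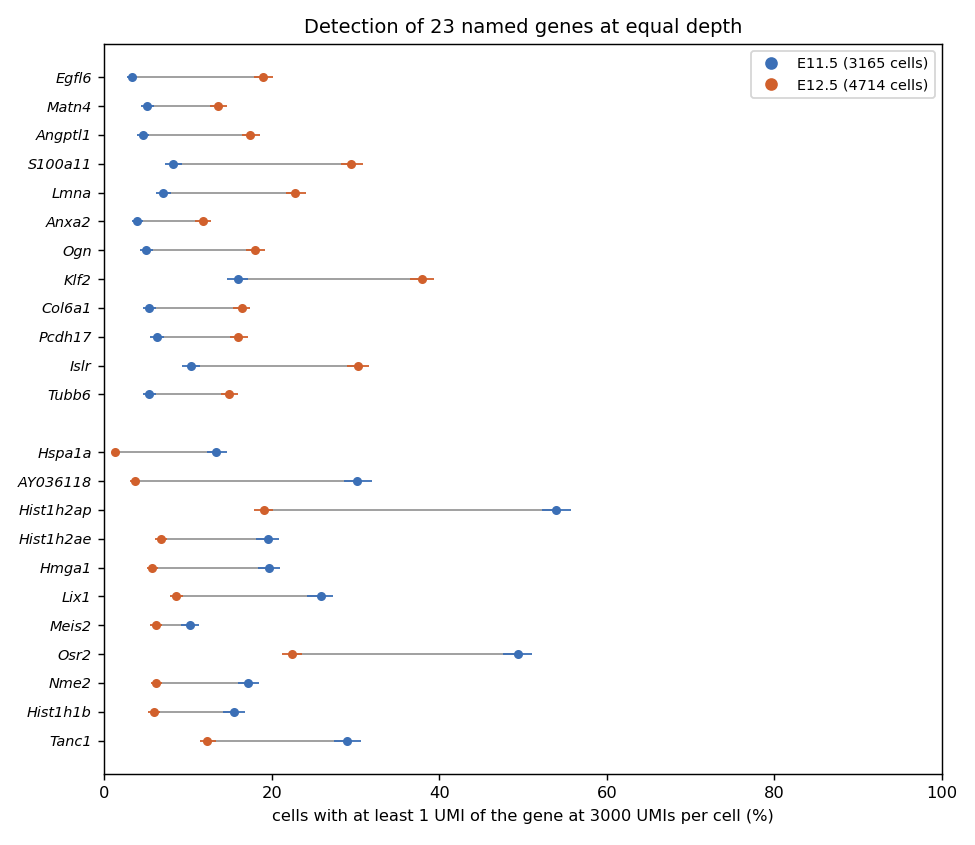
For 23 named genes the points give the percentage of cells with at least 1 UMI of the gene after thinning to 3000 UMIs, at E11.5 (blue, 3165 cells) and E12.5 (orange, 4714 cells), with exact binomial 95% intervals as bars. The upper 12 genes moved to the right, *Egfl6* from 3.25% to 18.9%, and the lower 11 to the left, *Hist1h2ap* from 53.9% to 19%.

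Most extracellular matrix genes had ratios above 1, and some passed 2-fold. Over 6 matrix lists, 21 of 64 genes that passed the filter were at least 2-fold higher (32.8%, beside 1.74% of all genes) and 0 were 2-fold lower, and the ratio was above 1 for 55 of them (beside 43.8% of all genes) with a median log2 ratio of 0.69. The small leucine-rich proteoglycans were the most uniform list: all 6 members that passed were at least 2-fold higher, with a median log2 ratio of 1.56, while 5 others lay under the filter. Because the filter takes the mean of both stages, a gene can pass it through its E12.5 level alone. This holds for every list below as well.

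*Dcn*, which encodes decorin, a binder of collagen fibrils, was at 81.1 and 249 CPM (ratio 3.07, 2.94 to 3.20), and *Lum*, encoding lumican, at 117 and 330 CPM (ratio 2.83, 2.73 to 2.93). *Kera*, encoding keratocan, was at 27.0 and 88.1 CPM (ratio 3.26, 3.03 to 3.52). These 3 genes are neighbours on 1 strand of chromosome 10 (GRCm38), with *Dcn* at chr10:97479609-97518143, *Lum* at chr10:97565128-97572703 and *Kera* at chr10:97606879-97613692. *Epyc*, next in that row of proteoglycan genes, lay under the filter at 6.70 and 9.25 CPM. *Ogn*, encoding osteoglycin, lies on chromosome 13 and was at 19.9 and 83.8 CPM (ratio 4.21, 3.87 to 4.59), with detection in 4.99% and 18% of cells. *Aspn* and *Omd*, upstream of *Ogn* on that chromosome, were at 1.59 and 8.19 CPM and at 0.0952 and 0.271 CPM, so the levels of that row stayed unequal. *Fmod*, the fibromodulin gene, was at 7.87 and 21.8 CPM and *Bgn*, the biglycan gene, at 15.2 and 32.6 CPM. Of these 6, *Bgn* had the smallest ratio at 2.15 (1.94 to 2.39).

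Among the fibrillar and associated collagens, 7 of 13 were at least 2-fold higher (53.8%, beside 1.74% of all genes, and 6 when every cell was thinned to 3000 UMIs), 0 were 2-fold lower and the median log2 ratio was 1.13. The chains of collagen VI, a beaded filament around cells, were among the collagens with the largest ratios: *Col6a3* was at 7.71 and 34.7 CPM (ratio 4.50, 3.93 to 5.17), *Col6a1* at 17.4 and 64.8 CPM (ratio 3.72, 3.39 to 4.08) and *Col6a2* at 16.1 and 45.0 CPM (ratio 2.80, 2.54 to 3.09). *Col6a1* and *Col6a2* lie 85.2 kb apart on chromosome 10. Of the major fibril collagens, *Col3a1* went from 387 to 935 CPM (ratio 2.42, 2.37 to 2.47) and was detected in 63.0% and 84.4% of cells, and its neighbour on chromosome 1, *Col5a2*, from 18.9 to 56.3 CPM (ratio 2.98, 2.73 to 3.27). *Col1a1* passed 2-fold at 256 and 560 CPM (ratio 2.18, 2.13 to 2.24), whereas *Col1a2*, the other chain of collagen I, was at 408 and 626 CPM (ratio 1.54, 1.51 to 1.57). *Col8a1* was the single collagen of the 13 with a ratio under 1, at 55.7 and 42.8 CPM.

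Genes of elastic fibres had a ratio above 1 in all 14 cases, beside 43.8% of all genes, though only 3 passed 2-fold (21.4%, beside 1.74%). These were *Lox* (6.16 and 18.6 CPM) and *Loxl2* (29.3 and 74.4 CPM), both enzymes that cross-link collagen and elastin, and *Eln* (5.75 and 14.9 CPM), the elastin gene. Of 9 matricellular genes, 4 were at least 2-fold higher (44.4%), and 3 when every cell was thinned to 3000 UMIs. *Postn*, the periostin gene, was at 3.30 and 24.1 CPM (ratio 7.30, 5.97 to 9.02), *Tgfbi* at 43.1 and 116 CPM, *Sparc*, which binds collagen and calcium, at 132 and 342 CPM, and *Tnc*, the tenascin C gene of tendon and condensing mesenchyme, at 34.0 and 75.6 CPM. *Vcan*, the large proteoglycan versican of loose early matrix, was the single member under 1, at 194 and 149 CPM. Basement membrane genes differed less: 0 of 10 passed 2-fold in either direction, beside 2.62% of all genes, with a median log2 ratio of 0.42. Among 12 proteases and inhibitors, *Adamts15* alone passed (8.33%, beside 1.74% of all genes), at 6.16 and 15.3 CPM.

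**Figure D3:**
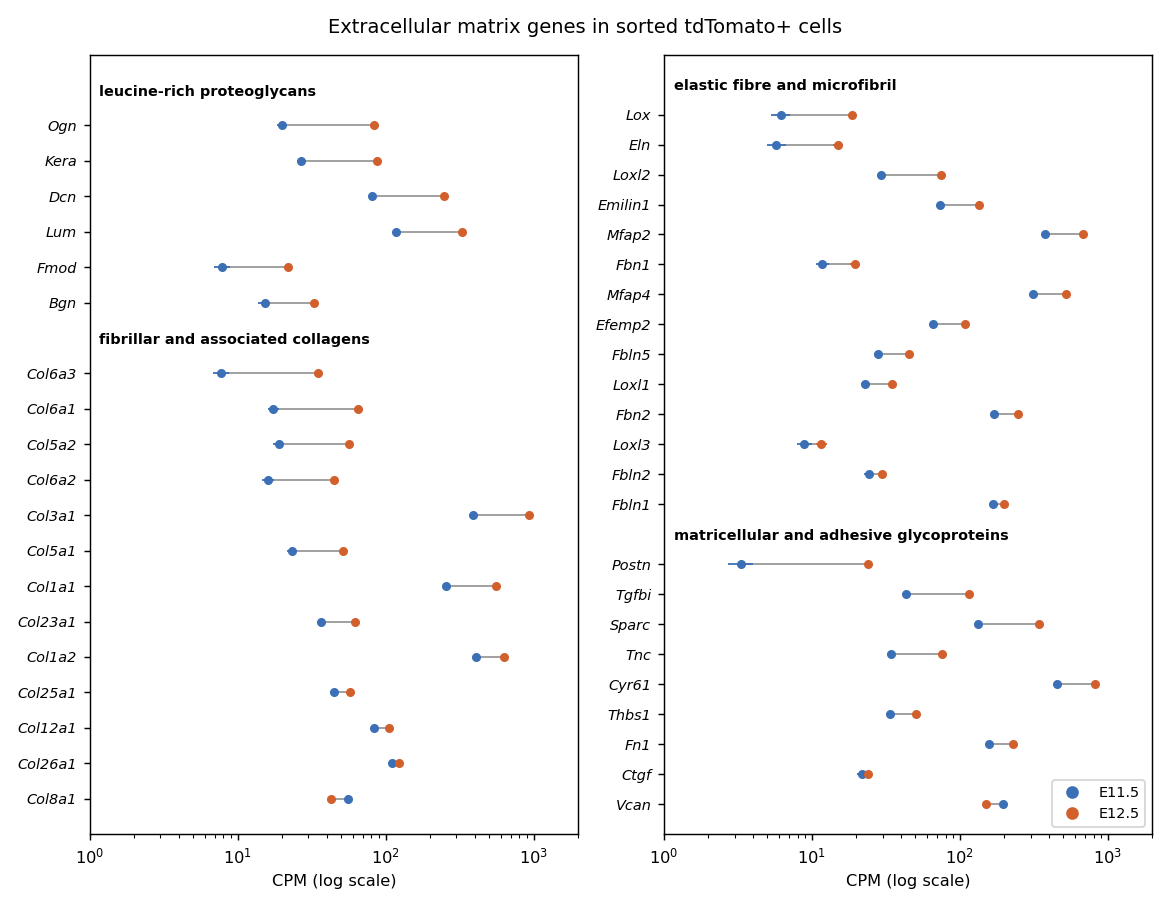
CPM (log scale) of every member that passed the filter in 4 matrix lists is drawn at E11.5 (blue) and E12.5 (orange), with exact Poisson 95% intervals as bars and a line joining the stages. The 6 proteoglycans lie 2.15-fold to 4.21-fold apart, and only *Col8a1* and *Vcan* have the E12.5 point to the left.

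Growth factor systems differed member by member. Over all signalling lists 10 of 94 genes were at least 2-fold higher (10.6%, beside 1.74% of all genes) and 3 were 2-fold lower (3.19%, beside 0.886%). In the insulin-like growth factor list 3 of 8 genes were at least 2-fold higher (37.5%), and 2 under 4 of 11 alternatives. The ligand gene *Igf1* was at 21.3 and 66.6 CPM (ratio 3.13, 2.88 to 3.41), while *Igf2* was at 2013 and 1684 CPM and the receptor gene *Igf1r* at 133 and 115 CPM. The binding proteins *Igfbp5* (124 and 380 CPM, ratio 3.08, 2.97 to 3.19) and *Igfbp3* (106 and 212 CPM, ratio 2.01, 1.93 to 2.09) also passed. In the bone morphogenetic protein (BMP) list 4 of 16 genes passed, all upwards: the ligands *Bmp5* (5.21 and 18.8 CPM) and *Gdf10* (6.19 and 19 CPM), and the extracellular regulators *Bmper* (5.02 and 25.8 CPM, ratio 5.14, 4.35 to 6.11) and *Grem1* (13.4 and 31.3 CPM). *Bmp4* was at 53.7 and 38.2 CPM and the receptor gene *Bmpr1a* at 99.4 and 102 CPM, so ligands, antagonists and receptors did not share 1 direction.

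Among 10 retinoic acid genes only *Aldh1a3*, an enzyme of retinoic acid synthesis, was at least 2-fold higher (10.0%, beside 1.74% of all genes). It was at 3.49 and 28.4 CPM (ratio 8.12, 6.68 to 9.96). *Aldh1a2*, the other synthesis enzyme of limb mesenchyme, was at 49.3 and 55.1 CPM. In the fibroblast growth factor list *Fgf9* was lower, at 17.4 and 5.18 CPM (ratio 0.298, 0.254 to 0.348), and the other 13 genes stayed within 2-fold. That is 7.14% of the list, beside 0.886% of all genes that were 2-fold lower. The lists of Wnt ligands (4 genes), secreted Wnt modulators (7), hedgehog (8) and transforming growth factor beta (8) held no gene past 2-fold, with *Tgfb2* just inside at 95.9 and 190 CPM. Beside 2.62% of all genes past 2-fold in either direction, an absence of calls in lists this short says little about them. Under 4 of 11 alternatives 1 secreted Wnt modulator was 2-fold higher, and under 4 also 1 gene of the transforming growth factor beta list. The Wnt targets *Lgr5*, a receptor for R-spondins, and *Nkd2*, a feedback inhibitor, lay on opposite sides at 8.16 and 16.9 CPM and at 44.6 and 20.1 CPM, and no Wnt target was 2-fold higher with thinned cells or with CPM + 1. *Lgr5* and *Nkd2* were each 16.7% of 6 Wnt targets, beside 1.74% of all genes higher and 0.886% lower. In the Notch list the ligand-like gene *Dll3* was lower, at 43.7 and 18.4 CPM (14.3% of 7 genes).

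Adhesion genes mostly had ratios above 1, and guidance genes had called members on both sides. Of 13 cadherin and adhesion genes 12 had ratios above 1 and 4 were at least 2-fold higher (30.8%, beside 1.74% of all genes), among them *Cdh4* (6.86 and 28.1 CPM, ratio 4.10, 3.55 to 4.76), *Alcam* (5.97 and 22.1 CPM) and *Pcdh10* (26.1 and 53.6 CPM), and 0 were lower. Of 25 guidance genes 1 was higher (4%) and 2 were lower (8%, beside 0.886% of all genes), a lower count that ran from 1 to 3 across the alternatives. *Epha3*, an ephrin receptor, was at 4.06 and 33.8 CPM (ratio 8.32, 6.94 to 10.0), while the semaphorin co-receptors *Nrp1* and *Nrp2* were at 91.7 and 45.3 CPM (ratio 0.494, 0.466 to 0.523) and at 216 and 98.7 CPM (ratio 0.457, 0.440 to 0.475). Detection of *Nrp2* went from 43.7% to 21.1% of cells. The chemokine receptor gene *Ackr3*, whose product binds and clears CXCL12, was at 3.90 and 18.7 CPM, and *Cxcl12* itself at 90.3 and 133 CPM.

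The genes with the largest decreases held a heat shock gene, histones and regulators of limb patterning. *Hspa1a*, the inducible HSP70 chaperone at chr17:34969190-34972156 (GRCm38), had 2444 UMIs at E11.5 and 220 at E12.5, or 77.6 and 4.98 CPM (ratio 0.0641, 0.0556 to 0.0736). Its detection went from 13.3% to 1.23% of cells. The whole E11.5 limb libraries had 15.2 and 5.81 CPM and the E13.5 library 29.2 CPM, so the E11.5 sorted library had the highest of these levels. Its near-identical neighbour *Hspa1b*, under the filter, was at 3.94 and 0.384 CPM, and reads of these copies could have been split or lost in counting. The list of immediate early and heat shock genes did not share this direction: 7 of its 18 genes that passed the filter had ratios above 1, the median log2 ratio was -0.04, and 1 gene (*Klf2*) was at least 2-fold higher (5.56%, beside 1.74% of all genes) and 3 were 2-fold lower (16.7%, beside 0.886%). Across the alternatives the lower count ran from 2 to 4. Besides *Hspa1a* these were the early response gene *Ier2*, at 772 and 366 CPM (ratio 0.474, 0.465 to 0.484), and the chaperone gene *Hsph1*, at 115 and 52.2 CPM (ratio 0.454, 0.431 to 0.478). *Dnajb1*, a co-chaperone gene, lay just inside the limit at 150 and 75.7 CPM (ratio 0.504, 0.482 to 0.527). Heat shock genes respond to handling of cells as well as to their state. The E11.5 library had more shallow barcodes of high mitochondrial content. In its cells of 3000 to 3500 UMIs *Hspa1a* was at 47.9 CPM, beside 77.6 CPM in all its cells. The log2 ratio of *Hspa1a* was -3.96, and it was -3.98 with at least 5000 UMIs per cell and -3.97 with a mitochondrial limit of 5%. The part of cell quality in this difference was not tested.

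The start regions of both *Hspa1* genes are shown because the heat shock element is a well known sequence of such promoters. They lie before the annotated starts, so their likeness does not bear on how reads were counted. Each is the 150 bases before the annotated start (RefSeq, GRCm38.p6, minus strand), read 5′ to 3′, with matches to GAANNTTC, the core pair of an inverted heat shock element, in capitals.
Hspa1a, chr17:34972157-34972306: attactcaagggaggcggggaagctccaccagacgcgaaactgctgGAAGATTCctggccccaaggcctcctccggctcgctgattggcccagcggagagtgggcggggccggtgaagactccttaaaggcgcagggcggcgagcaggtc
Hspa1b, chr17:34959239-34959388: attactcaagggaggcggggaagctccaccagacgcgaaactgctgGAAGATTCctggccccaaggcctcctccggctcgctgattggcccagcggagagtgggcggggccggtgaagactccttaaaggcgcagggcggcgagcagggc
These windows differ at 1 of 150 positions, and each holds 1 match, which starts 104 bases before the start site. The motif reads the same on both strands and was present in 6.69% of 32851 annotated start regions of 250 bases. No match to GAANNTTC was found in the 250 bases before either start of *Hsph1* or of *Dnajb1*. Other arrangements of the heat shock element were not searched for. The missing match therefore does not show that these genes lack such an element. A match is a description of the letters and not a bound site.

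Most cell division genes had ratios under 1. All 20 markers of the G2 phase and mitosis had ratios under 1, with a median log2 ratio of -0.69, beside 56.2% of all genes with a ratio under 1. Of the 20, 3 passed 2-fold (15.0%, beside 0.886% of all genes), and this count ranged from 2 with centred ratios to 9 in cells with fewer than 3 of the markers. Those cells were chosen by the same markers that were then compared, so the count of 9 is not independent of that choice. With all cells and no centring the 3 were the mitotic kinases *Aurka* (94.5 and 42.4 CPM, ratio 0.449, 0.423 to 0.475) and *Plk1* (70.1 and 31.5 CPM, ratio 0.449, 0.420 to 0.481) and the spindle gene *Hmmr* (85.7 and 42.3 CPM). *Mki67*, a marker of cycling cells, was at 123 and 75.6 CPM, and *Top2a* at 405 and 323 CPM. Of 20 DNA replication genes 19 had ratios under 1, with a smaller median log2 ratio of -0.32 and 0 past 2-fold. *Cdkn1c*, an inhibitor of the cell cycle, was at 1334 and 1836 CPM and *Cdkn1b*, another, at 55.4 and 37.6 CPM.

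Counted per cell, 1469 cells at E11.5 (46.4%, exact binomial 95% interval 44.7 to 48.2) and 1201 at E12.5 (25.5%, 24.2 to 26.7) had at least 3 of the 20 G2 and mitosis markers at 3000 UMIs. The difference of -20.9 percentage points was larger than counting error, and it lay between -28.9 and -18.0 points under the other depths and marker numbers. For the replication list the shares with 3 markers were 78.3% and 63.4%.

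Some histone genes of the replication-dependent clusters had smaller ratios than any of the cycle markers above. *Hist1h2ap* was at 1870 and 331 CPM (ratio 0.177, 0.174 to 0.180) with 58904 and 14641 UMIs, *Hist1h2ae* at 117 and 31.2 CPM and the linker histone *Hist1h1b* at 93.7 and 36.8 CPM. In cells with fewer than 3 mitosis markers, the log2 ratio of *Hist1h2ae* was -0.38 instead of -1.91 and that of *Hist1h1b* -1.96 instead of -1.35. Whole limbs of the same day, of whose cells 72.1% and 71.3% had 3 mitosis markers, stood under the sorted E11.5 library for *Hist1h2ap* (63.7 and 82.9 CPM) and *Hist1h2ae* (39.8 and 39.6 CPM) and above it for *Hist1h1b* (213 and 179 CPM). Histone genes are near-identical copies whose transcripts mostly lack a poly(A) tail, so that their counts depend on how reads were captured and assigned.

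Several other decreases also concern genes with copies or overlaps. *AY036118* went from 120 to 12.7 CPM (ratio 0.106, 0.0970 to 0.116). Over its whole 923 bases it overlaps *Gm42418*, which is on the other strand, beside the *Gm26917* gene on chromosome 17. *Gm42418* was at 473 and 134 CPM and *Gm26917* at 346 and 121 CPM. *Nme2*, a nucleoside diphosphate kinase, was at 66.8 and 23.1 CPM and at 124 CPM at E13.5. Genes of this kind have copies or overlaps in the genome, and their values are uncertain.

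Regulators of growth and patterning made up the rest of the 12. *Hmga1*, an architectural chromatin protein of growing embryonic cells, was at 80.7 and 21.4 CPM (ratio 0.266, 0.246 to 0.286), and *Lix1*, a gene of early limb and gut mesenchyme, at 134 and 38.6 CPM (ratio 0.287, 0.272 to 0.304). *Osr2*, a zinc finger transcription factor of connective tissue and joints, was at 278 and 95.6 CPM (ratio 0.344, 0.331 to 0.357), with detection in 49.4% and 22.4% of cells, whereas its paralogue *Osr1* was at 116 and 98.5 CPM. *Tanc1*, a scaffold protein, was at 115 and 45.7 CPM (ratio 0.397, 0.376 to 0.420).

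Several positional genes of proximal or margin domains were lower at E12.5. Over 7 positional lists 7 of 33 genes were at least 2-fold lower (21.2%, beside 0.886% of all genes) and 0 were higher. *Meis2* and *Meis1*, homeobox factors of the proximal limb, were at 85.0 and 28.3 CPM (ratio 0.333, 0.311 to 0.357) and at 33.8 and 14 CPM (ratio 0.414, 0.374 to 0.457), while *Pbx2* and *Pbx3*, which encode partners of these factors, were at 60.3 and 61.7 CPM and at 38.6 and 37.2 CPM. The anterior Hox genes *Hoxa5* (27.4 and 8.53 CPM, ratio 0.311, 0.275 to 0.352) and *Hoxa7* (32.5 and 12.9 CPM) were lower, and these lie 9.90 kb apart. Of the 8 posterior HoxA and HoxD genes 0 passed 2-fold, with a median log2 ratio of 0.02, but 2 were 2-fold higher when every cell was thinned to 3000 UMIs and 1 in each of 3 other alternatives. They ranged from *Hoxd9* (97.3 and 63.9 CPM) to *Hoxa11* (22.2 and 43.8 CPM, ratio 1.97, 1.81 to 2.16), with *Hoxa10* at 306 and 290 CPM. *Hoxd13*, of the autopod, was at 7.56 and 13.6 CPM, and at 122 and 106 CPM in the whole limbs. HoxB and HoxC genes were all under the filter and summed to 15.1 and 5.86 CPM and to 14.2 and 10.1 CPM.

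*Msx1* and *Msx2*, homeobox targets of BMP signalling at the limb margins, were at 37.7 and 11.9 CPM (ratio 0.315, 0.283 to 0.349) and at 18.8 and 5.41 CPM (ratio 0.288, 0.246 to 0.335). Both were at 208 CPM or more in the whole limbs. *Lmx1b*, which sets dorsal identity, was at 34.0 and 16.5 CPM. The list of distal and axial limb regulators, which holds these 3 genes, had 2 to 3 lower and 0 to 1 higher genes across the alternatives. *Shox2*, of the proximal limb segment, was at 591 and 344 CPM, *Tbx15* at 214 and 113 CPM, and *Tbx5*, of the forelimb field, at 221 and 208 CPM.

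Lineage markers moved in different ways. Of the 9 tenogenic markers that passed the filter 3 were at least 2-fold higher (33.3%, beside 1.74% of all genes, and 2 when every cell was thinned to 3000 UMIs), namely *Kera*, *Fmod* and *Tnc*, given above, while the tendon transcription factor *Scx* was level at 182 and 183 CPM. Cells with at least 3 tenogenic markers numbered 321 at E11.5 (10.1%, 9.11 to 11.2) and 920 at E12.5 (19.5%, 18.4 to 20.7), a difference of 9.37 percentage points. Most of these cells had exactly 3 markers (256 and 612), and with at least 4 the shares were 2.05% and 6.53%, a difference of 4.48 points. *Tnmd*, a marker of tenocyte maturation, was under the filter at 1.27 and 3.44 CPM. Of the perichondrial and osteogenic markers *Runx2*, the osteoblast transcription factor, was at 4.54 and 16.6 CPM (ratio 3.66, 3.06 to 4.41), and cells with at least 3 such markers numbered 5 (0.158%, 0.0513 to 0.368) and 57 (1.21%, 0.917 to 1.56), of which 5 and 49 had exactly 3.

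The chondrogenic list held 1 gene past 2-fold out of 9 (11.1%, beside 1.74% of all genes), *Matn4*. *Sox9*, the transcription factor of cartilage condensation, was at 339 and 200 CPM and its partners *Sox5* and *Sox6* at 49.7 and 40.4 CPM and at 52.4 and 39.4 CPM, whereas the 4 collagen IX and XI genes that passed had ratios above 1 and *Col2a1*, the main cartilage collagen, was at 192 and 191 CPM. Cells with at least 3 chondrogenic markers made up 25.1% (23.6 to 26.7) at E11.5 and 23.2% (22 to 24.4) at E12.5. The E13.5 library had 36.2%. The difference between E11.5 and E12.5, -1.93 percentage points, was within its counting error, whose half-width was 1.95 points. That half-width was computed for the -1.93 points only. Under 5 of 7 alternatives the difference was negative and beyond it. Among these were a second random seed (-2.65 points), doublet-like cells left out (-2.34 points) and no thinning (-10.5 points). The difference was -0.995 points with a mitochondrial limit of 5% and 1.77 points with at least 4 markers. The alternatives reuse cells of the same libraries, so they are not separate evidence. Cells that carried both 3 chondrogenic and 3 tenogenic markers were 71 at E11.5 and 300 at E12.5. At E11.5 they were 8.93% of the chondrogenic cells, beside a tenogenic share of 10.1% over all cells. They were 22.1% of the tenogenic cells, beside a chondrogenic share of 25.1% over all cells. At E12.5 the same values were 27.4% beside 19.5% and 32.6% beside 23.2%.

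Markers of fibrogenic progenitors and later fibroblasts were also examined. Of 11 fibrogenic progenitor genes *Ebf2*, a transcription factor of mesenchyme, was higher at 33.0 and 106 CPM (ratio 3.21, 3.0 to 3.44), *Osr2* was lower, and *Pdgfra* was at 276 and 272 CPM. *Ebf2* and *Osr2* were each 9.09% of the list, beside 1.74% of all genes higher and 0.886% lower. Cells with 3 of the fibrogenic progenitor markers made up 82.1% and 79.1%. Of the markers of adult universal fibroblasts only *Cd248* passed the filter, at 7.05 and 17.0 CPM, and no cell had 3 of them at either stage. *Dlk1*, an imprinted growth regulator, lay just inside the 2-fold limit at 711 and 1420 CPM (ratio 2.00, 1.97 to 2.03).

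**Figure D4:**
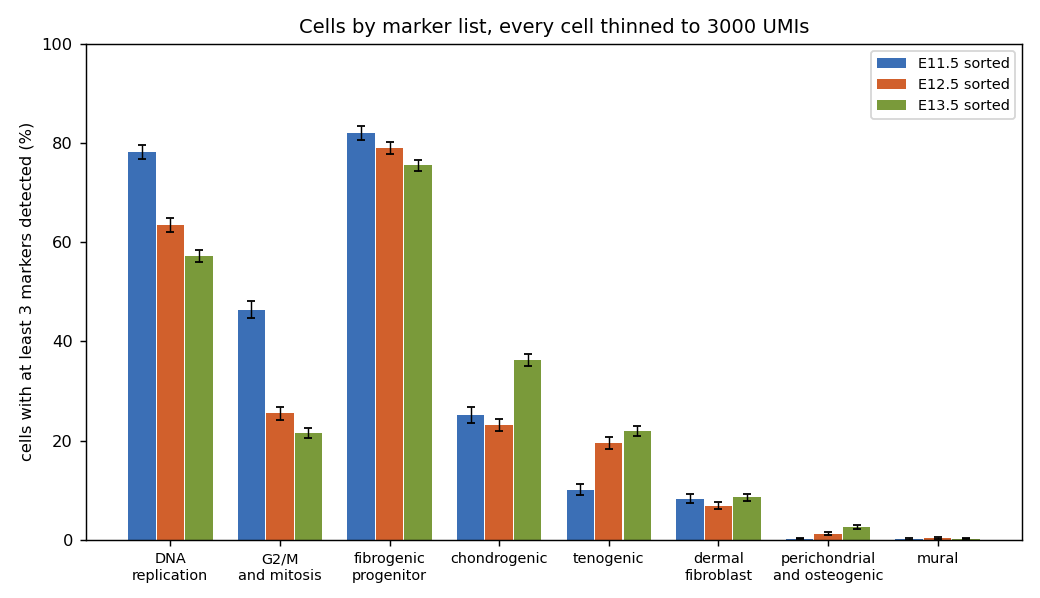
Bars give the percentage of cells with at least 3 detected markers of each list after thinning to 3000 UMIs, in the E11.5, E12.5 and E13.5 sorted libraries (blue, orange, green), with exact binomial 95% intervals. Between E11.5 and E12.5 the share for G2/M and mitosis went from 46.4% to 25.5%, and that for tenogenic markers from 10.1% to 19.5%.

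Some of the genes that were higher at E12.5 differed in level between cells of that library with and without chondrogenic markers. The 1093 cells with at least 3 chondrogenic markers were set against the other 3621, without a test, since cells are not replicates. Of 26 genes (the named genes that were higher and the higher members of the proteoglycan, collagen and BMP lists, without chondrogenic markers), 3 were at least 2-fold higher in the marked cells, beside 1.06% of 8456 genes that passed the filter and were no chondrogenic markers, and 7 were at least 2-fold lower, beside 1.40%. The ratio was below 1 for 20 of the 26 genes, against 51.5% of all. *Lum* was at 76.0 CPM in the marked cells and 399 CPM in the others (ratio 0.191, 0.177 to 0.205), *Dcn* at 67.8 and 298 CPM (ratio 0.227, 0.209 to 0.246) and *Kera* at 19.8 and 107 CPM (ratio 0.186, 0.159 to 0.215). *Bmper*, at 71.0 and 13.5 CPM (ratio 5.26, 4.67 to 5.93), *Bmp5*, at 38.8 and 13.4 CPM, and *Angptl1*, at 139 and 54.3 CPM, lay on the other side. *Ogn* was nearly even, at 93.0 and 81.3 CPM.

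Set beside E11.5, *Dcn* went from 43.3 to 67.8 CPM in cells with chondrogenic markers and from 92.0 to 298 CPM in the others. *Lum* did likewise, with 46.3 and 76.0 CPM in marked cells and 137 and 399 CPM in the others. *Bmper* went from 9.37 to 71.0 CPM in marked cells and from 3.76 to 13.5 CPM in the others. *Matn4*, itself one of the markers, was at 61.3 and 400 CPM in marked cells and at 4.95 and 13.7 CPM in the others. Levels of 4 of these genes, chosen after their values were seen, are given for cells with mitosis markers. At E12.5 *Ogn* was at 47.9 CPM in cells with at least 3 mitosis markers and 101 CPM in the others (ratio 0.474, 0.435 to 0.514), *Col6a1* at 39.2 and 77.3 CPM and *Egfl6* at 57.5 and 110 CPM, whereas *Lum* was at 385 and 303 CPM.

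**Figure D5:**
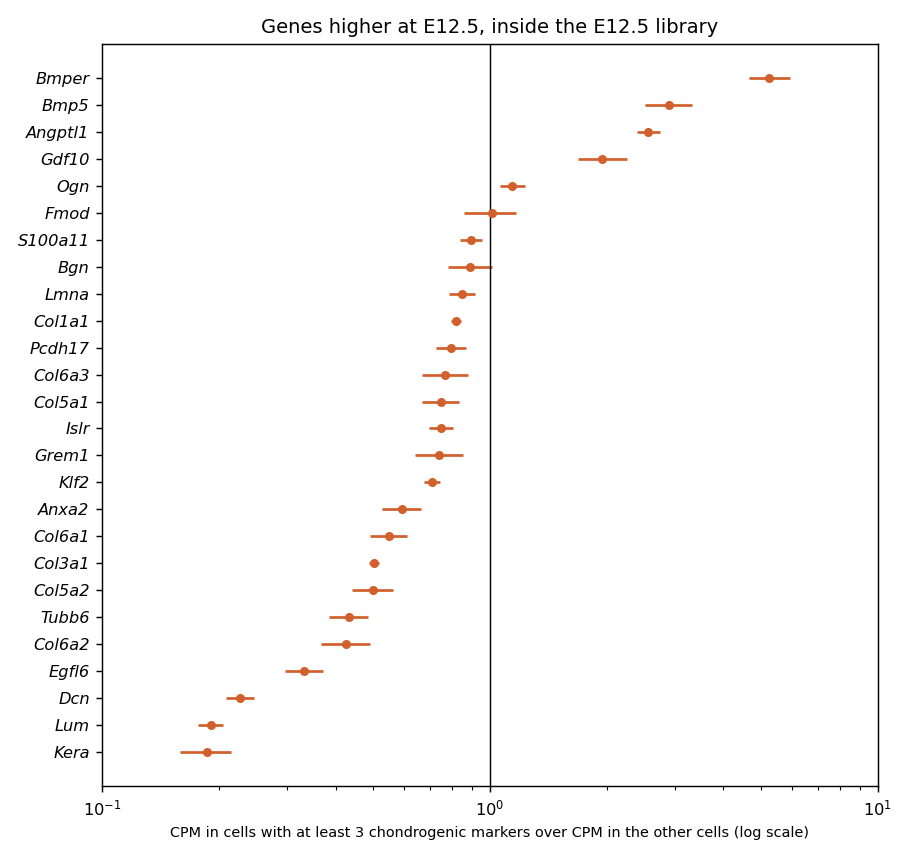
For 26 genes that were at least 2-fold higher at E12.5, the points give the ratio of CPM in the 1093 cells with at least 3 chondrogenic markers to CPM in the other 3621 cells of the E12.5 library (log scale), with exact 95% intervals. *Bmper* lies at 5.26 and *Lum* at 0.191, with *Ogn* close to 1.

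Summed markers of other cell types were higher at E12.5 than at E11.5, but immune markers were nearly level. Some of the differences rested mostly on 1 gene. Glial and epithelial sums passed those of the whole E11.5 limb libraries at both stages. Endothelial and neuronal sums reached or passed them at E12.5 only. Summed over their lists, endothelial markers were at 7.30 and 24.4 CPM, myogenic markers at 12.2 and 27.1 CPM, neuronal markers at 16.9 and 45.8 CPM, glial markers at 38.7 and 76.1 CPM, epithelial markers at 40.5 and 71.1 CPM and immune markers at 4.79 and 5.13 CPM. In the whole limbs these sums were 20.1 and 24.7 CPM for endothelial, 142 and 111 for myogenic, 29.9 and 29.4 for neuronal, 15.9 and 13.2 for glial, 27.1 and 26.7 for epithelial and 7.68 and 8.66 for immune markers. *Epcam* and *Krt18* of the epithelial list were at 19.4 and 31.3 CPM and at 15.5 and 21.4 CPM. *Pecam1* was at 4.57 and 14.3 CPM and *Cdh5*, which defines endothelium, at 0.0317 and 0.611 CPM. *Ngfr*, a neurotrophin receptor gene, was at 25 and 63.8 CPM while *Sox10*, which defines glia, was at 0.349 and 0.407 CPM. The difference in *Ngfr* was larger than that in the glial sum, so the other glial markers together were not higher at E12.5. *Stmn2*, a microtubule regulator of neurons, had 24 and 1039 UMIs (0.762 and 23.5 CPM, ratio 30.8, 20.6 to 48.4), the largest ratio of all genes that passed the filter, while the neuronal gene *Tubb3* was level at 3.30 CPM in both. *Stmn2* made up most of the difference in the neuronal sum. The defining keratin genes *Krt5* and *Krt14* had 0 UMIs at both stages. Leaving out the few cells with at least 3 markers of another cell type gave 148 higher and 75 lower genes, which does not bear on RNA of other cells below that limit.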

How the data were processed

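Each deposited matrix gives whole-number UMI counts of genes in cell barcodes, made by the authors with the 10x 3′ v2 kit for both stages and the Cell Ranger count pipeline (3.0.2 per the file headers) on a modified mm10 reference. According to the methods, embryos of both stages were dissociated with the same enzyme mixture, and those of E13.5 with another. Groups were taken from the GEO labels. Cells under 3000 UMIs, as in the study, or over 10% mitochondrial UMIs were left out, and the UMI counts of the rest were summed per library and scaled to CPM. Calls needed a 2-fold ratio and a mean of 10 CPM over both libraries. Named genes were the 12 highest and 12 lowest by the ratio of CPM + 1, if the larger level was at least 50 CPM, without globin, mitochondrial, Y-linked, *Xist*, *Tsix*, Gm and Rik genes, plus members of 50 gene lists. Of these 24 genes, 1 is not reported here. A few further genes were named after their values were seen. The part of the series, the lists and the rule were chosen with earlier results of these data known. Intervals are exact (Poisson, conditional binomial or Clopper-Pearson, 95%) and cover counting error only. Detection used cells thinned to 3000 UMIs, which left out 1079 and 272 shallower barcodes. Cells carry marker counts and no cell type names. Doublets were not removed: Scrublet called 4 cells at E11.5 and 0 at E12.5, so the 4% of cells with the highest scores (127 and 189) were left out as an alternative. Calculations were tested on simulated data and used Python 3.11.15, numpy 2.4.6, scipy 1.17.1 and scanpy 1.11.5. Positions are from GENCODE vM21 (GRCm38), and start regions from RefSeq, which held 4 of the 6 proteoglycan genes and 4 of the 4 heat shock genes looked for.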

Additional observations from a re-analysis of the deposited data

How the results depend on the processing

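No paired analysis was possible because each stage had 1 library and no test was made. A second library per stage would be needed to set these ratios against the spread between embryos or sorts, which no alternative here can measure. Of 264 values of the 24 named genes under 11 alternatives, all 264 kept their direction and 263 stayed past 2-fold. These genes were chosen for extreme ratios in the same libraries, and the alternatives reuse the same UMIs, so this is no separate support. The value not past 2-fold was that of *Hist1h2ae* in cells with fewer than 3 mitosis markers, at a log2 ratio of -0.38. The counts of 147 higher and 75 lower genes became 1557 and 1223 without a filter on low values and 39 and 27 with a mean of 50 CPM. Under the other alternatives they ranged from 138 to 175 higher and from 63 to 106 lower. The share of cells with G2 and mitosis markers, E12.5 minus E11.5, was -25.2 percentage points at 5000 UMIs, -28.9 without thinning, -18.0 with at least 4 markers and -24.7 with at least 2. The chondrogenic difference was -5.98, -10.5, 1.77 and -7.34 points and the tenogenic difference 14.3, 13.1, 4.48 and 12.2 points under the same 4 settings in that order. The causes were not tested, except that more UMIs per cell and fewer required markers place more cells over the limit by construction.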

Other observations

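Beyond the lists and the rule for named genes, several genes that passed the filter at low levels had large ratios, and they are given here after their values had been seen. *Mgp*, the matrix Gla protein that limits mineral deposition, had 53 UMIs at E11.5 and 989 at E12.5 (1.68 and 22.4 CPM, ratio 13.3, 10.1 to 17.9) and was at 107 CPM at E13.5. *Emp1*, an epithelial membrane protein gene, was at 5.17 and 34.4 CPM, and *Ly6h* at 3.37 and 27.5 CPM. *Agtr2*, the type 2 angiotensin receptor gene, known from fetal mesenchyme, was at 8.89 and 46.6 CPM (ratio 5.24, 4.63 to 5.96), and *Piezo2*, a mechanically gated channel gene, at 8.29 and 32.5 CPM. *Egfr* was at 7.49 and 24.9 CPM in the sorted cells and at 0.741 CPM or less in the whole E11.5 limbs.

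The Id genes, inhibitors of basic helix-loop-helix factors, were within 2-fold between E11.5 and E12.5 and far lower in the next library. *Id1* was at 1209 and 1201 CPM, then at 140 CPM at E13.5, and *Id3* at 2218, 2128 and 495 CPM. *Snai1*, a transcription factor of migrating mesenchyme, was at 414, 355 and 45.4 CPM and the early response gene *Egr1* at 215, 206 and 42.4 CPM. The E13.5 cells had been dissociated with other enzymes, so stage and dissociation cannot be told apart for that step, whereas E11.5 and E12.5 shared theirs.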
